A study of Mus musculus with 9 samples.

Results

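The 32 genes examined here encode the subunits of the mouse Mediator complex, together with the kinases *Cdk8* and *Cdk19* and their cyclin *Ccnc*. They were taken by gene symbol from a table of 21883 genes, and each of the 32 symbols was found once. Their transcripts were followed in 9 RNA libraries of thymic invariant natural killer T (iNKT) cells from C57BL/6 mice, with 3 libraries for each of WT (wild type) stage 2, stage 3 of the same genotype, and stage 2 lacking *Med23*. iNKT cells are T cells with a semi-invariant receptor for glycolipids on CD1d, and stage 2 (CD44 high, NK1.1 low) precedes the mature stage 3 (CD44 high, NK1.1 high). The WT mice were 6 weeks old. The *Med23*-deficient mice, whose age the labels do not give, carried loxP-flanked *Med23* alleles and a Cre transgene driven by the *Cd4* promoter, so that the deletion takes place in T lineage cells from the CD4+CD8+ double-positive (DP) stage on and not in the whole animal. How many mice went into a library is not given in the sources used here, so the p-values measure the spread between these libraries, which may be partly technical. The sources also do not say whether the *Med23*-deficient libraries were prepared or sequenced together with the WT libraries. If they were not, differences of genotype and of batch cannot be told apart here.

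Mediator is the large assembly that carries signals from DNA-bound transcription factors to RNA polymerase II. Its head and middle modules contact the polymerase, its tail is the main landing site for activators, *Med14* is the backbone that joins the 3 parts, and a dissociable kinase module (*Cdk8* or *Cdk19*, *Ccnc*, *Med12* or its paralogue, and *Med13* or *Med13l*) restrains or redirects the complex. *Med23*, a tail subunit that binds the viral protein E1A and phosphorylated Elk1, is the subunit deleted in these mice. The questions asked of the data were whether the transcripts of the other subunits differ between stage 2 and stage 3, and whether they differ when *Med23* has been deleted.

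The libraries held between 15584 and 17333 genes above an FPKM of 0 (fragments per kilobase of transcript, scaled to the mapped fragments of the library). Without read counts, sequencing depth is not known here and counting intervals cannot be set. The gene model *Gm23935* made up 62.2% to 71.9% of the summed FPKM of a library. Mean sums were 1406450 in WT stage 2, 1505560 in WT stage 3 and 1536880 in *Med23*-deficient libraries. Without this gene they were 470601, 488143 and 484949. A scale of equal sums (TPM) is thus set mostly by *Gm23935*, and no such scale without it was fitted. *Zbtb16*, the gene of the iNKT factor PLZF, lay at 68.08 to 112.43 FPKM in the 6 stage 2 libraries, whereas *Cd24a*, a gene of immature thymocytes, did not exceed 0.72 FPKM in any library. *Klrb1c*, which encodes NK1.1 and was used in the sort, lay at 57.27 to 95.09 FPKM in WT stage 3, 7.65 to 26.24 FPKM in WT stage 2 and 2.61 to 4.60 FPKM in *Med23*-deficient stage 2 cells. Summed FPKM over 6 DP thymocyte markers was 3.09 to 4.10 in WT stage 2, 2.89 to 4.99 in WT stage 3 and 0.95 to 3.70 in *Med23*-deficient libraries. The 4 myeloid markers in the table summed to at most 2.33, the 2 B cell markers to at most 0.50 and the 1 erythroid marker to at most 0.75 FPKM. These are bulk samples, in which fewer cells of a type and less RNA per cell cannot be told apart.

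All 32 Mediator genes were transcribed in these cells, and none was listed at 0 in any library. FPKM is scaled for transcript length, so levels can be set side by side between genes, and they spanned a wide range. *Med15* (tail, a target of many activators) had the highest mean over the 9 libraries at 36.1 FPKM, followed by *Med10* (middle) at 33.2 FPKM. *Med12* and *Med13* of the kinase module came next at 20.8 FPKM each, and *Med4* (middle) at 19.2 FPKM. At the other end were *Med7* at 1.47, *Med31* at 1.61 and *Med18* at 2.19 FPKM. A mean of 10 FPKM or more was reached by 9 genes, and every library was at 1 FPKM or more for 29 genes, the exceptions being *Med7*, *Med18* and *Med27*. The 3 highest genes of a library took between 29.3% and 36.2% of the summed Mediator FPKM.

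**Figure D1:**
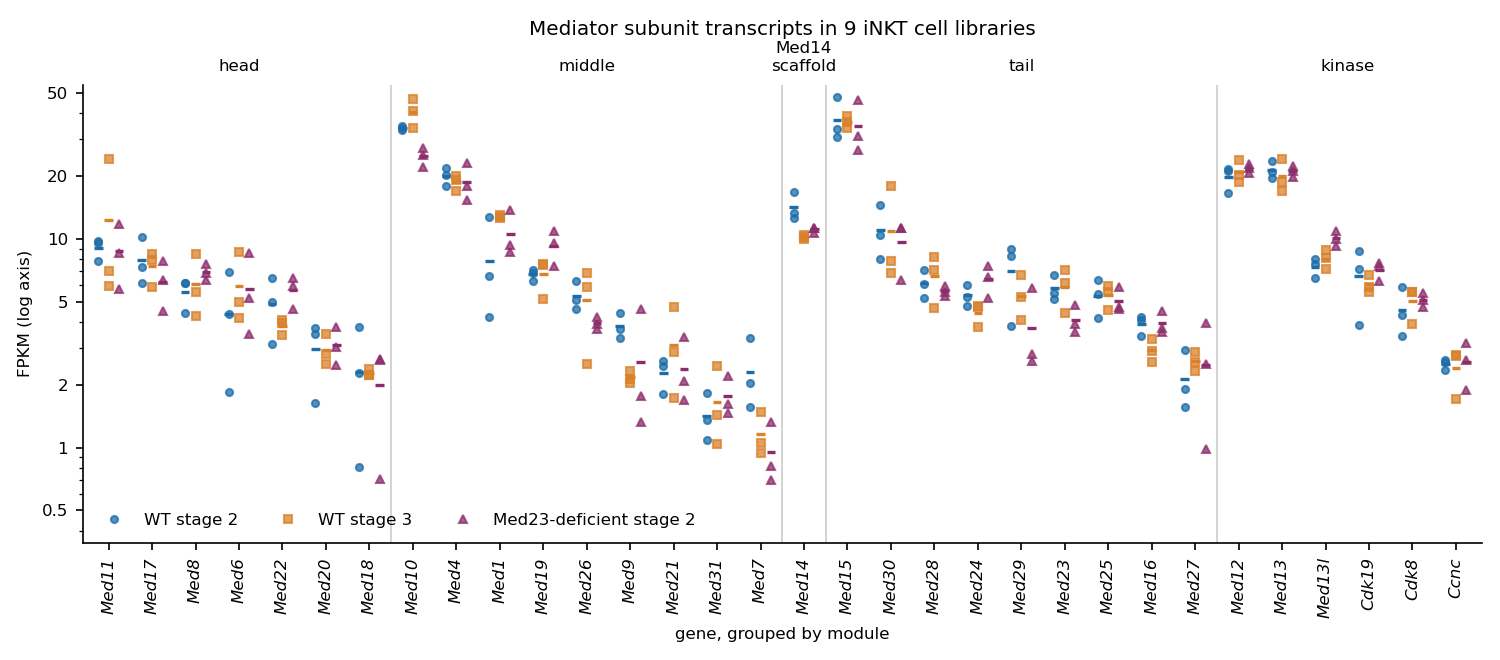
FPKM (log axis) of the 32 Mediator genes in 9 libraries, grouped by module and ordered within a module by the mean over all libraries; circles are WT stage 2, squares WT stage 3, triangles *Med23*-deficient stage 2, and short bars group means (n = 3). *Med15* and *Med10* lie highest and *Med7* and *Med31* lowest, and in most genes the symbols of the 3 groups overlap.

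The order of the genes was nearly the same in the 3 groups. Across the 32 genes, group means had a Spearman correlation of 0.95 between WT stage 2 and WT stage 3, 0.92 between WT stage 2 and *Med23*-deficient stage 2, and 0.94 between WT stage 3 and *Med23*-deficient stage 2. These values are descriptions across genes, which share their libraries and are not independent replicates. Neighbours in the order often did not differ beyond their spread: in WT stage 2, *Med15* (37.4 ± 9.17 FPKM, SD, n = 3) and *Med10* (34.0 ± 0.754) overlapped, as did *Med13* (21.4 ± 1.97), *Med4* (19.98 ± 1.94) and *Med12* (19.8 ± 2.72). Replicates of a group varied with a median coefficient of variation over the 32 genes of 18.4% in WT stage 2, 17.6% in WT stage 3 and 19.9% in *Med23*-deficient cells. Among the modules of several genes, the highest median was that of the head genes in WT stage 2 (34.5%) and the lowest that of the kinase genes in *Med23*-deficient cells (7.83%).

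No Mediator gene passed the adjusted threshold in any of the 3 comparisons. Each comparison was fitted with limma on log2(FPKM + 1) over all genes detected in its 6 libraries, with p adjusted by Benjamini-Hochberg over all of them. Between WT stage 3 and WT stage 2, 0 of 32 genes reached an adjusted p of 0.05, where 1.67% of all 20689 genes did, and 2 reached an unadjusted p of 0.05 (6.25%, against 13.2% of all genes). Between *Med23*-deficient and WT stage 2 cells, the counts were 0 of 32 (0.213% of all genes) and 3 of 32 (9.38%, against 9.58%). Between *Med23*-deficient stage 2 and WT stage 3, which differ in genotype and stage together, they were 0 of 32 (1.33%) and 3 of 32 (9.38%, against 10.2%). A fold change of at least 2 with an unadjusted p of 0.05, the thresholds of the study, was reached by 0 of 32 genes in each comparison, against 3.6%, 2.11% and 2.86% of all genes. All 32 genes had a mean of at least 1 FPKM, and among genes at that level the shares were higher. In the same order they were 2.4%, 0.357% and 2.01% at the adjusted threshold and 18.1%, 12.9% and 13.4% at an unadjusted p of 0.05. With the fold threshold they were 5.59%, 3.34% and 4.47%. A per-gene linear model in the manner of Ballgown, the tool of the study, with a term for library size, also gave 0 Mediator genes at an adjusted p of 0.05 in each comparison, but it called 0, 0 and 12 of all genes, so that its first pair of counts says nothing about Mediator. At an unadjusted p of 0.05 it gave 0, 1 and 4 Mediator genes, against 11.3%, 7.58% and 12.8% of all genes.

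Groups of 3 libraries that do not overlap are a second way to read the same values. Between the WT stages, 4 of 32 genes (12.5%) did not overlap, against 17.8% of all genes. All 4 (*Med7*, *Med9*, *Med14* and *Med16*) were lower in stage 3, against 10.4% of all genes lower and 7.36% higher. In the comparison of genotypes at stage 2, 8 of 32 genes (25.0%) did not overlap, against 14% of all genes. Of these, *Med8*, *Med19* and *Med13l* were higher (9.38%, against 5.63%) and *Med7*, *Med10*, *Med14*, *Med23* and *Med26* lower (15.6%, against 8.37%) in *Med23*-deficient cells. The shares of 25.0% and 15.6% include *Med23*, the gene deleted in these mice. Against WT stage 3, 6 of 32 genes (18.8%) of the *Med23*-deficient libraries did not overlap, against 14.2% of all genes, with *Med13l*, *Med14*, *Med16*, *Med22* and *Med24* higher (15.6%, against 7.48%) and *Med10* lower (3.12%, against 6.75%). All 32 genes had a mean of at least 1 FPKM, and among genes at that level the shares without overlap were 24.5%, 19% and 18.9%. The first comparison shares its WT stage 2 libraries with the second, and the other pairs share a group as well.

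The differences were small as well as uncertain. The median log2 fold change of the 32 genes was -0.0045 between WT stages, -0.0060 between the genotypes at stage 2 and -0.031 between *Med23*-deficient stage 2 and WT stage 3 cells. Among all expressed genes, those whose FPKM averaged 1 or more, the medians were -0.051, -0.050 and -0.0013. In absolute size the median was 0.11, 0.18 and 0.19 for the Mediator genes and 0.26, 0.23 and 0.21 for those genes. In the same order, 16, 16 and 15 of the 32 genes had a higher mean log2 value in the group named first. The 95% interval of the log2 fold change lay wholly within 1 in either direction, which leaves out a 2-fold difference on this scale, for 23, 25 and 24 of the 32 genes. The scale of log2(FPKM + 1) understates changes of the low genes, and the remaining genes had intervals too wide for this statement.

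**Figure D2:**
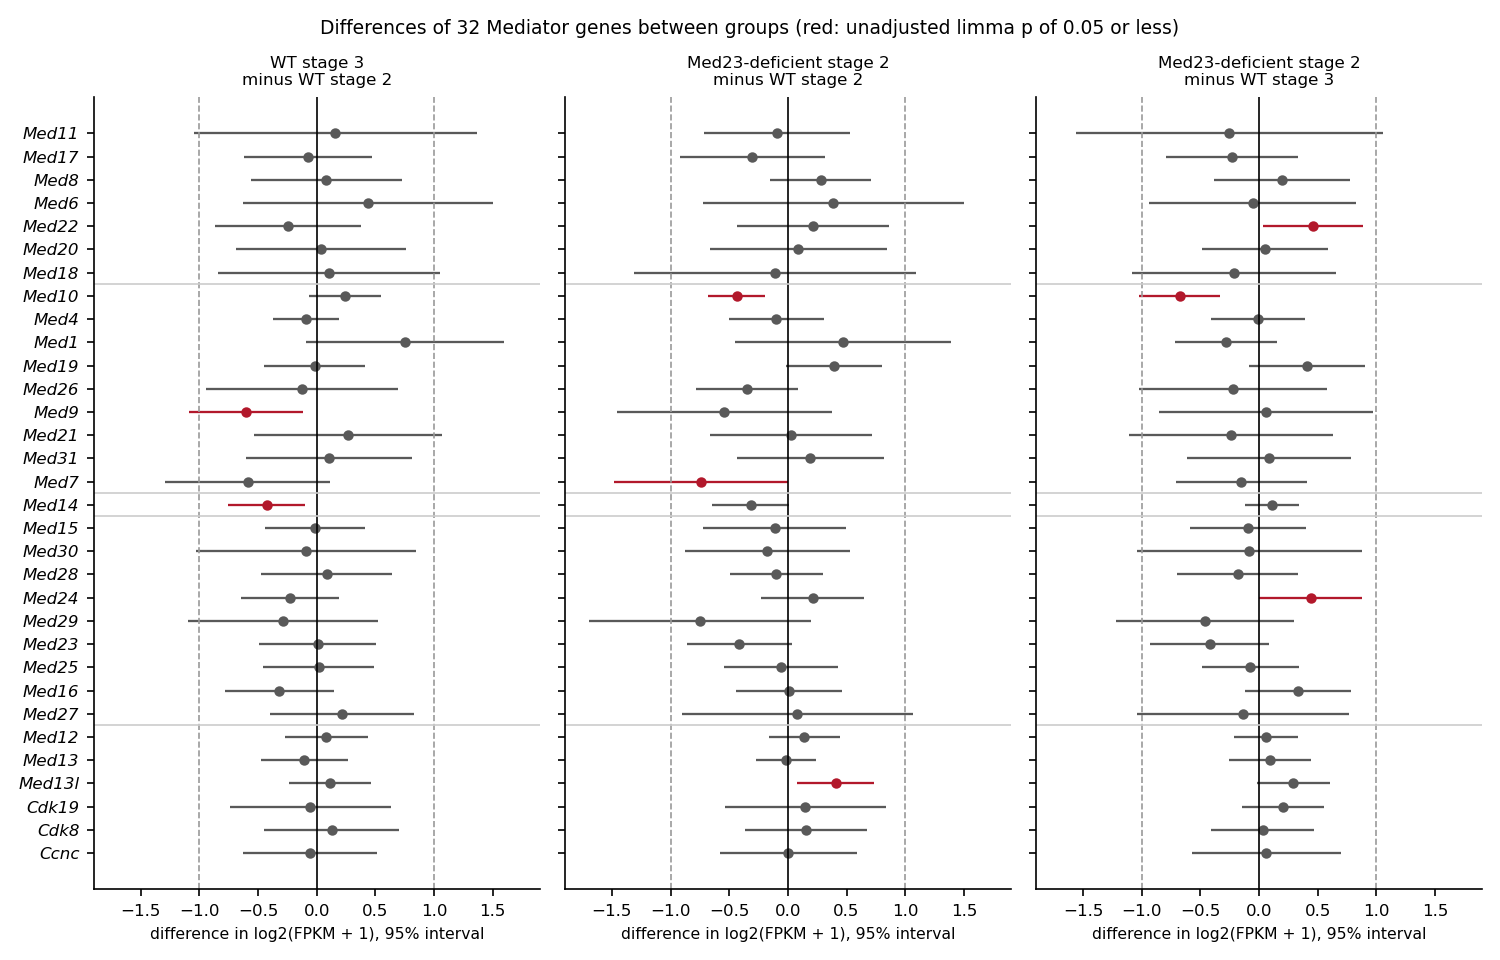
Difference in log2(FPKM + 1) of each Mediator gene (points) with its 95% limma interval (lines) in 3 comparisons, the group named first minus the other; dashed lines mark a 2-fold difference in either direction and grey lines separate head, middle, *Med14*, tail and kinase genes. Red marks the 2, 3 and 3 genes with an unadjusted p of 0.05 or less, of which *Med10* appears in both comparisons with *Med23*-deficient cells.

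*Med23* itself (ENSMUSG00000019984, chromosome 10, 24869986 to 24913681, plus strand, mm10) was still listed in the *Med23*-deficient libraries. Its values were 5.51, 5.15 and 6.74 FPKM in WT stage 2, 7.14, 4.44 and 6.12 FPKM in WT stage 3, and 4.80, 3.6 and 3.92 FPKM in *Med23*-deficient stage 2 cells. The deficient values lay below every WT stage 2 value, but 4.80 FPKM overlapped the lowest WT stage 3 library. The log2 fold change against WT stage 2 was -0.41 (95% interval -0.86 to 0.04, limma adjusted p = 0.552), and between the WT stages it was 0.0083 (95% interval -0.49 to 0.51, limma adjusted p = 0.988). Values per gene join all exons and cannot tell a transcript that lacks the deleted part from an intact one.

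**Figure D3:**
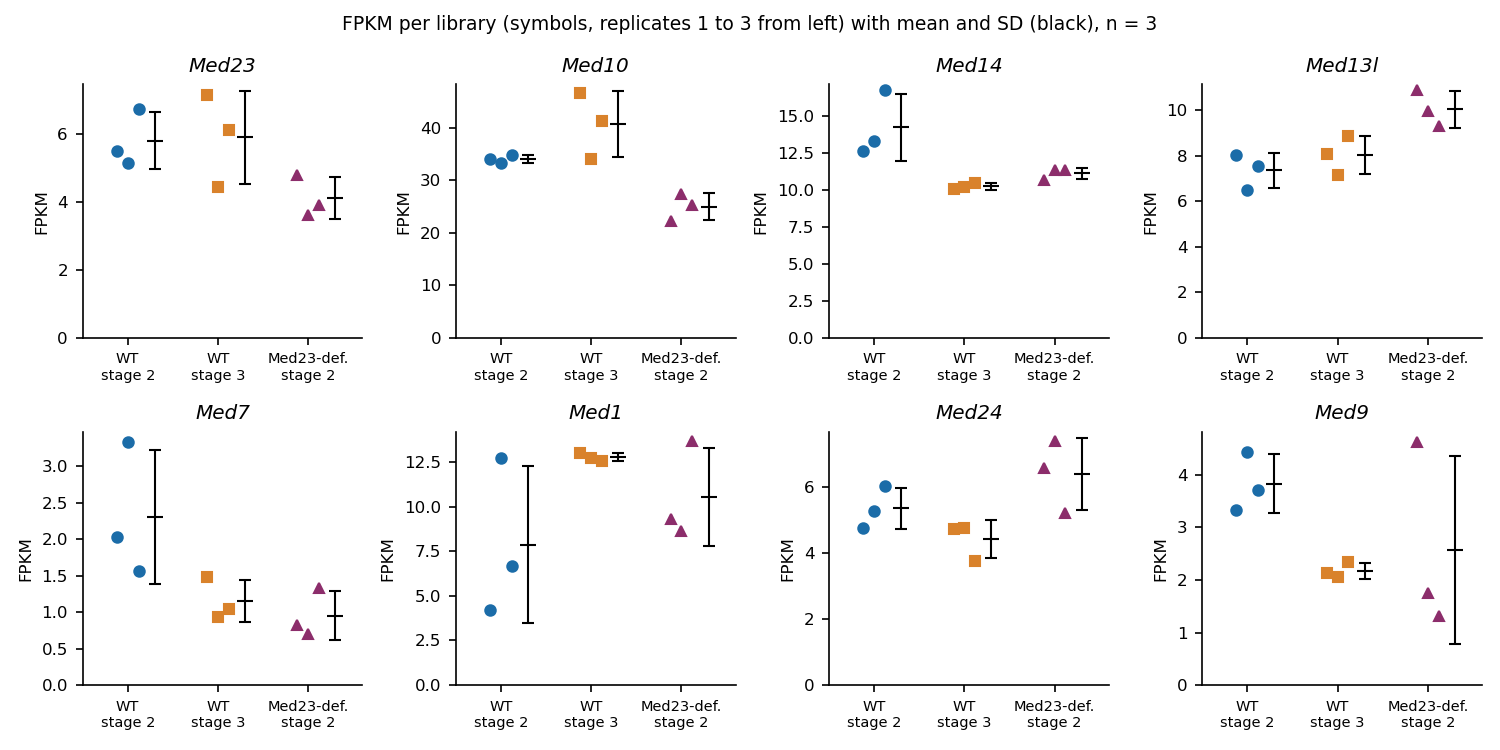
FPKM of 8 Mediator genes in each library (coloured symbols, replicates 1 to 3 from left), with the group mean and SD in black (n = 3); each vertical axis starts at 0. *Med10* is lower and *Med13l* higher in all 3 *Med23*-deficient libraries than in all 6 WT libraries, the 3 groups of *Med14* do not overlap, and *Med1* is spread widely in WT stage 2.

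The tail partners of *Med23* had means in *Med23*-deficient cells at or above those of both WT groups, without passing the test. *Med24* and *Med16* encode the subunits that sit beside Med23 in the tail. *Med24* (chromosome 11, 98704591 to 98729435) measured 4.77, 5.29 and 6.03 FPKM in WT stage 2, 4.74, 4.78 and 3.77 FPKM in WT stage 3, and 6.59, 7.40 and 5.22 FPKM in *Med23*-deficient cells. All 3 *Med23*-deficient libraries thus lay above the WT stage 3 libraries (log2 fold change 0.44, 95% interval 0.0023 to 0.88, limma adjusted p = 0.485), while the range overlapped that of WT stage 2 (0.21, 95% interval -0.23 to 0.65, limma adjusted p = 0.731). *Med16* (chromosome 10, 79894708 to 79908923) measured 4.24, 3.42 and 4.08 FPKM in WT stage 2, 3.33, 2.91 and 2.56 FPKM in WT stage 3, and 3.58, 4.51 and 3.76 FPKM in *Med23*-deficient cells. Its WT stage 3 libraries lay below all 6 stage 2 libraries of either genotype, with a log2 fold change of -0.32 between the WT stages (limma adjusted p = 0.552) and 0.010 between the genotypes at stage 2 (limma adjusted p = 0.986).

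The other tail genes overlapped between all groups. *Med15* (chromosome 16, 17651221 to 17722930) ranged from 26.83 to 47.80 FPKM over the 9 libraries, with log2 fold changes between -0.11 and -0.018. *Med25*, whose product binds the viral activator VP16, ranged from 4.20 to 6.34 FPKM. *Med27*, *Med28* and *Med30*, found in the connection between head and tail, had ranges of 0.99 to 3.95, 4.67 to 8.24 and 6.38 to 17.95 FPKM. *Med29* showed the lowest mean log2 fold change of all 32 genes against WT stage 2, -0.75, but with a 95% interval from -1.69 to 0.19 (limma adjusted p = 0.62). Its values were 8.28, 8.98 and 3.82 FPKM in WT stage 2, 6.71, 4.09 and 5.27 FPKM in WT stage 3, and 2.82, 2.61 and 5.80 FPKM in *Med23*-deficient cells. Replicate 3 of each stage 2 group lay within the range of the other group. Without WT stage 2 replicate 3 the log2 fold change was -1.08, and without *Med23*-deficient replicate 3 it was -1.04, with limma adjusted p of 0.408 and 0.538. With any 1 of the other 4 libraries left out it lay between -0.63 and -0.56.

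*Med10*, a small conserved subunit of the middle module, had the lowest p of the 32 genes in both comparisons with *Med23*-deficient cells. *Med10* (ENSMUSG00000021598, chromosome 13, 69809882 to 69816094, plus strand) measured 34.06, 33.18 and 34.68 FPKM in WT stage 2, 46.62, 34.08 and 41.27 FPKM in WT stage 3, and 22.20, 27.34 and 25.24 FPKM in *Med23*-deficient cells. The 3 deficient libraries lay below all 6 WT libraries. Means were 34.0 ± 0.754, 40.7 ± 6.29 and 24.9 ± 2.58 FPKM (SD, n = 3 each). The log2 fold change was -0.44 against WT stage 2 (95% interval -0.68 to -0.19, limma adjusted p = 0.206) and -0.68 against WT stage 3 (95% interval -1.02 to -0.33, limma adjusted p = 0.124). By unadjusted p it ranked 437 of 20674 and 505 of 20846 genes. With all 9 libraries in 1 fit, the second adjusted p was 0.0356, the single setting in which a Mediator gene passed. Between the WT stages the log2 fold change was 0.24 (95% interval -0.064 to 0.55, limma adjusted p = 0.487). A long non-coding gene on the opposite strand, *Gm26819*, covers 6181 bases of *Med10* and had a mean of 0.0356 FPKM.

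A stretch upstream of the RefSeq start of *Med10* is printed here, because *Med10* was the Mediator gene that separated *Med23*-deficient from WT libraries downwards, with stretches of *Med14* and *Med19*. They end 1, 204 and 71 bases before the start in that order. These 3 were picked, after their values were seen, from the 8 genes whose promoter window held the word marked here. Capitals mark the ETS word CCGGAAG, the core bound by ETS factors, the family that holds Elk1, on either strand, and the sequences are given on the strand of the gene (RefSeq, GRCm38.p6).
Med10, chr13:69809836-69809881, plus strand: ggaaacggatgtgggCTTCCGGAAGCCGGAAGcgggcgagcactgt
Med14, chrX:12762177-12762213, minus strand: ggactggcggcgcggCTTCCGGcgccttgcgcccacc
Med19, chr2:84678295-84678331, plus strand: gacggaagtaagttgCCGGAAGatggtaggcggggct
The other genes with the word were *Med4*, *Med6*, *Med15*, *Med17* and *Med18*, and their libraries overlapped in all 3 comparisons. *Med7*, *Med9*, *Med13l*, *Med16*, *Med22* and *Med26* had groups that separated in at least 1 comparison and a window without the word. *Med19* separated from WT stage 2 but overlapped WT stage 3. The word occurs 3 times in the *Med10* stretch, 2 times on the strand of the gene and 1 time on the other, with overlaps. RefSeq windows of 300 bases (250 before to 50 after the start) were found for 27 of the 32 genes, 31 windows in all. The word lay in 9 of the 31 windows (29.0%), against 20.4% of 9225 windows of expressed genes and 8.86% of all 32851 windows. Counted by gene, it lay in 8 of 27 (29.6%), against 23.8% of 7269 expressed genes and 9.93% of all 27025 genes with a window. The GC box GGGCGG was in 61.3% of Mediator windows, 63.7% of those of expressed genes and 35.7% of all, and CCAAT was in 38.7%, 37.7% and 37.4%. TATAAA, searched on both strands as the others were, was in 3 of the 31 windows (9.68%, against 6.70% of those of expressed genes). The median ratio of observed to expected CpG was 0.839 for Mediator genes and 0.781 for expressed genes. A match is a description of these letters and not of a bound factor.

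In the rest of the middle module, *Med1*, *Med7*, *Med9*, *Med19* and *Med26* had groups that separated or came near it. *Med1* (chromosome 11, 98152154 to 98193293), whose product contacts nuclear receptors, measured 4.23, 12.76 and 6.66 FPKM in WT stage 2, 13.04, 12.77 and 12.57 FPKM in WT stage 3, and 9.34, 8.65 and 13.71 FPKM in *Med23*-deficient cells. WT stage 2 replicate 2 stood with the WT stage 3 libraries, so the stages overlapped. The log2 fold change of 0.75 between the WT stages was the highest of the 32 genes, with a 95% interval of -0.093 to 1.594 (limma adjusted p = 0.433). Without that replicate it was 1.12, with a limma adjusted p of 0.104, and *Med1* then passed a fold of 2 with an unadjusted p of 0.05. Without WT stage 2 replicate 1, the lowest library, it was 0.43, with a limma adjusted p of 0.595. Against WT stage 2, *Med23*-deficient cells had a log2 fold change of 0.47 (limma adjusted p = 0.731), which was 0.15 with the lowest and 0.84 with the highest WT stage 2 library left out.

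*Med7*, which forms the hinge of the middle module with *Med21*, and *Med9* were the low genes of this group. *Med7* (chromosome 11, 46436925 to 46442721) measured 2.03, 3.34 and 1.56 FPKM in WT stage 2, 1.48, 0.94 and 1.05 FPKM in WT stage 3, and 0.82, 0.70 and 1.33 FPKM in *Med23*-deficient cells. WT stage 2 lay above all 6 other libraries, with log2 fold changes of -0.59 for WT stage 3 (limma adjusted p = 0.46) and -0.74 for *Med23*-deficient cells (95% interval -1.48 to -0.0024, limma adjusted p = 0.518). On a pseudocount of 0.01 in place of 1 the latter was -1.25. *Med9* (chromosome 11, 59948206 to 59962205) measured 3.34, 4.44 and 3.72 FPKM in WT stage 2, 2.13, 2.05 and 2.34 FPKM in WT stage 3, and 4.63, 1.76 and 1.32 FPKM in *Med23*-deficient cells. The WT stages did not overlap, with a log2 fold change of -0.60 (95% interval -1.09 to -0.12, limma adjusted p = 0.258), whereas the deficient libraries lay on either side of them.

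*Med19* (chromosome 2, 84678402 to 84688215) measured 6.31, 7.14 and 6.89 FPKM in WT stage 2, 7.60, 7.52 and 5.18 FPKM in WT stage 3, and 10.90, 9.57 and 7.42 FPKM in *Med23*-deficient cells. The deficient libraries lay above WT stage 2, with a log2 fold change of 0.39 (95% interval -0.018 to 0.80, limma adjusted p = 0.542), and overlapped WT stage 3. *Med19* shares 739 bases with *Tmx2* and 246 bases with *Zdhhc5* on the opposite strand, which had means of 8.79 and 17.6 FPKM, and whether strand was used in the quantification is not given in the sources used here. *Med26*, the subunit that binds the super elongation complex, measured 5.08, 4.60 and 6.30 FPKM in WT stage 2 and 4.21, 3.69 and 3.92 FPKM in *Med23*-deficient cells. These groups did not overlap (log2 fold change -0.35, limma adjusted p = 0.619), while WT stage 3, at 2.52, 6.87 and 5.91 FPKM, covered both. *Med4*, *Med21* and *Med31* overlapped in every comparison, with log2 fold changes from -0.24 to 0.26.

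*Med14*, the backbone of the complex, was the 1 Mediator gene whose 3 groups did not overlap at all. *Med14* (ENSMUSG00000064127, chromosome X, 12675369 to 12762073, minus strand) measured 12.59, 13.27 and 16.77 FPKM in WT stage 2, 10.69, 11.35 and 11.30 FPKM in *Med23*-deficient cells, and 10.02, 10.18 and 10.48 FPKM in WT stage 3. WT stage 2 was therefore the highest group and also the most spread, with a coefficient of variation of 15.8% against 3.31% and 2.28%. The log2 fold change was -0.43 for WT stage 3 against WT stage 2 (95% interval -0.75 to -0.10, limma adjusted p = 0.232). For the genotypes at stage 2 it was -0.32 (95% interval -0.65 to 0.0096, limma adjusted p = 0.539), and for *Med23*-deficient against WT stage 3 cells 0.11 (95% interval -0.12 to 0.34, limma adjusted p = 0.75). Both of the first comparisons rest on the same 3 WT stage 2 libraries.

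The 7 head genes, which contact the polymerase, showed no common direction. Between WT stages, 5 had a higher and 2 a lower mean log2 value in stage 3 (median log2 fold change 0.082). Of the 5, *Med18* and *Med20* had slightly lower mean FPKM in stage 3 (2.287 against 2.293 and 2.947 against 2.960). A higher mean log2 value in *Med23*-deficient than in WT stage 2 cells was found for 4 of 7 (median 0.089). *Med22*, which pairs with *Med11*, measured 4.99, 6.51 and 3.15 FPKM in WT stage 2, 3.94, 3.48 and 4.08 FPKM in WT stage 3, and 5.92, 6.50 and 4.63 FPKM in *Med23*-deficient cells. The deficient libraries lay above WT stage 3 (log2 fold change 0.46, 95% interval 0.032 to 0.89, limma adjusted p = 0.44) and within the range of WT stage 2. *Med8* measured 6.15, 4.4 and 6.18 FPKM in WT stage 2 and 7.55, 6.90 and 6.34 FPKM in *Med23*-deficient cells, without overlap (log2 fold change 0.28, limma adjusted p = 0.705), and its WT stage 3 values of 8.49, 4.27 and 5.58 FPKM covered both.

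Single libraries set the widest intervals of the head. *Med11* stood at 24.14 FPKM in WT stage 3 replicate 1 and between 5.74 and 11.84 FPKM in all others. *Med18*, which forms a mobile pair with *Med20*, was listed at 0.81 FPKM in WT stage 2 replicate 2 and 0.71 FPKM in *Med23*-deficient replicate 1, and between 2.23 and 3.78 FPKM elsewhere. *Med6* ran from 1.85 to 8.67 FPKM, *Med17*, the core of the head, from 4.50 to 10.26 FPKM, and *Med20* from 1.64 to 3.79 FPKM, with overlap in each comparison.

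In the kinase module, *Med13l* was the only gene with groups that did not overlap. *Med13l* (ENSMUSG00000018076, chromosome 5, 118560679 to 118765438, plus strand), which like its paralogue *Med13* tethers the kinase module to the core, measured 8.02, 6.49 and 7.57 FPKM in WT stage 2, 8.09, 7.16 and 8.87 FPKM in WT stage 3, and 10.92, 9.96 and 9.30 FPKM in *Med23*-deficient cells. The 3 deficient libraries lay above all 6 WT libraries. The log2 fold change was 0.41 against WT stage 2 (95% interval 0.075 to 0.74, limma adjusted p = 0.403) and 0.29 against WT stage 3 (95% interval -0.020 to 0.61, limma adjusted p = 0.525). It kept its sign in all 16 alternatives against WT stage 2, from 0.29 to 0.50. As these groups do not overlap, leaving a library out or changing the pseudocount could not have changed the sign. Of the 32 genes, *Med13l* above and *Med10* below were the 2 in which the deficient libraries stood apart from all 6 WT libraries, where 3.54% of all 21795 detected genes did so in either direction, 1.89% above and 1.65% below. Among genes with a mean of at least 1 FPKM, a level that all 32 reach, the share was 5.06%, with 2.43% above and 2.63% below. Within the annotation, 5 short gene models of the provisional class TEC lie on the same strand within the span of *Med13l*, with means of 1.53 to 4.15 FPKM.

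The other kinase module genes overlapped between the groups, and their intervals leave room for differences. *Med13* ranged from 17.02 to 24.11 FPKM, with log2 fold changes of -0.11 between the WT stages and -0.015 (95% interval -0.27 to 0.24) between the genotypes. *Med12*, which activates the kinase, ranged from 16.67 to 23.84 FPKM. *Cdk8* ranged from 3.44 to 5.90, *Cdk19* from 3.88 to 8.80 and *Ccnc* from 1.71 to 3.19 FPKM, all overlapping between the groups. The 95% intervals of the log2 fold change ran from -0.74 to 0.63 for *Cdk19* and from -0.45 to 0.70 for *Cdk8* between the WT stages, and from -0.53 to 0.83 for *Cdk19* between the genotypes at stage 2. *Med12l*, the paralogue of *Med12*, did not exceed 0.32 FPKM in any library.

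The balance between paralogues was also measured within each library, as a description. *Cdk19* made up 53.0%, 67.1% and 54.96% of the summed FPKM of *Cdk8* and *Cdk19* in WT stage 2, between 51.5% and 58.8% in WT stage 3, and between 55.3% and 61.2% in *Med23*-deficient cells. *Med13l* made up between 23.6% and 29.0% of *Med13* plus *Med13l* in WT stage 2, 26.9% to 32.2% in WT stage 3 and 29.3% to 35.5% in *Med23*-deficient cells. The *Med13l* shares of *Med23*-deficient cells lay above those of WT stage 2 and overlapped those of WT stage 3.

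**Figure D4:**
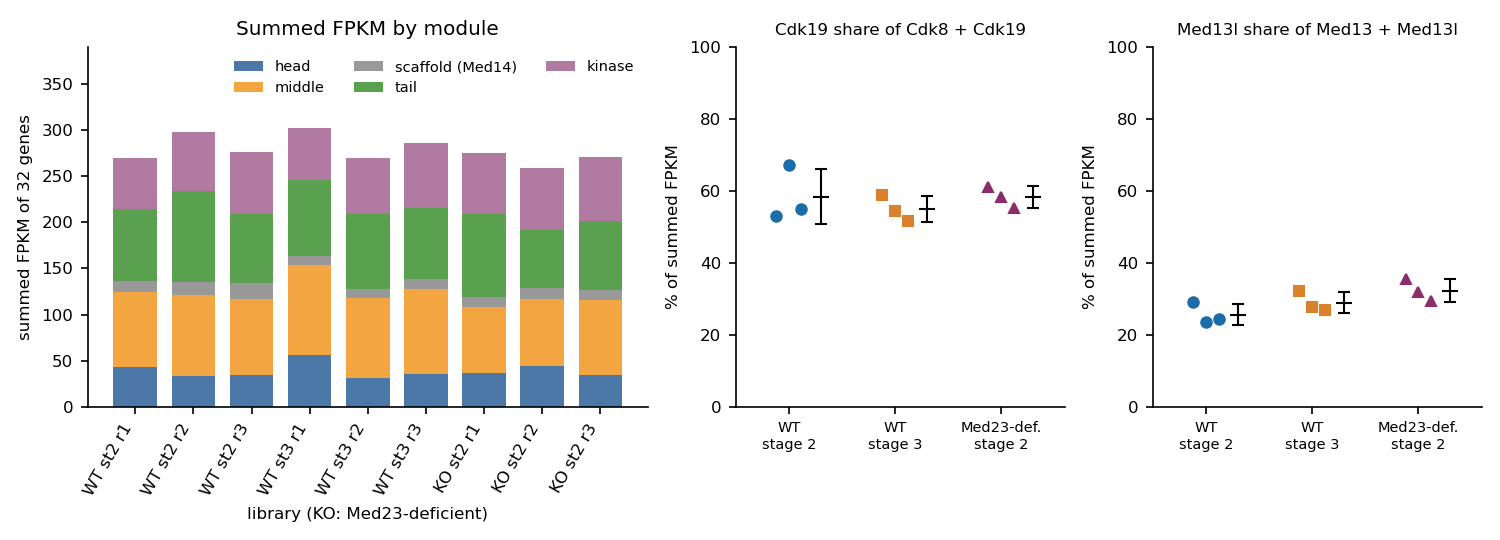
Left, summed FPKM of the 32 Mediator genes in each library, stacked by module; centre and right, the *Cdk19* share of *Cdk8* plus *Cdk19* and the *Med13l* share of *Med13* plus *Med13l* in each library (percent of summed FPKM, symbols) with mean and SD in black (n = 3). The totals lie between 259 and 302 FPKM in all 9 libraries, and the *Med13l* shares reach from 23.6% in WT stage 2 to 35.5% in *Med23*-deficient cells.

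Added together, the 32 genes gave a similar total in the 3 groups. The sum was 281 ± 15.1 FPKM in WT stage 2, 286 ± 16.1 FPKM in WT stage 3 and 268 ± 8.16 FPKM in *Med23*-deficient cells (SD, n = 3 each), and the ranges overlapped. The middle genes summed to 80.56 to 87.70 FPKM in WT stage 2, 86.15 to 97.46 FPKM in WT stage 3 and 71.71 to 80.92 FPKM in *Med23*-deficient cells, with *Med10* as the largest part. The kinase genes summed to 54.28 to 68.19, 56.03 to 69.98 and 66.70 to 68.47 FPKM. The kinase genes had a higher mean in *Med23*-deficient cells than in WT stage 3 for 6 of 6 genes, and than in WT stage 2 for 5 of 6, with medians of 0.077 and 0.14 on the log2 scale. The tail genes had a lower mean in *Med23*-deficient cells for 6 of 9 against WT stage 2 and 7 of 9 against WT stage 3, with medians of -0.099 and -0.094. Without *Med23*-deficient replicate 2 the latter was 0.068, in the other direction. *Med23* itself, the deleted gene, is among the 9 tail genes and was lower in both comparisons. The median absolute log2 fold change of expressed genes was 0.23 and 0.21 in these comparisons.

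The partners of Mediator in transcription initiation and elongation were compared in the same fits. Over 12 RNA polymerase II subunits, 14 TFIID genes, 10 TFIIH genes, 14 genes of P-TEFb and the super elongation complex, 8 cohesin genes and 4 Elk and SRF genes, none reached an adjusted p of 0.05 in any comparison under limma. At an unadjusted p of 0.05, 3, 5 and 2 of them passed in the 3 comparisons, which is 4.84% of 62, 8.20% of 61 and 3.23% of 62 genes tested, against 13.2%, 9.58% and 10.2% of all genes. Between the WT stages, *Polr2a*, *Polr2l* and *Taf7* had an unadjusted p of 0.05 or less, all lower in stage 3. *Polr2a*, the largest subunit of the polymerase, had a mean of 49.6 FPKM in WT stage 3 and 58.8 FPKM in WT stage 2 (log2 fold change -0.24, limma adjusted p = 0.267). In *Med23*-deficient against WT stage 2 cells, the 5 genes were *Hexim1*, *Larp7*, *Polr2k*, *Taf7* and *Ercc3*. *Hexim1* and *Larp7*, which hold P-TEFb inactive in the 7SK particle, had log2 fold changes of -0.65 and -0.46 (limma adjusted p = 0.486 and 0.508), *Polr2k* and *Taf7* of -0.64 and -0.37, and *Ercc3* of 0.35. In *Med23*-deficient stage 2 against WT stage 3 cells the 2 genes were *Polr2a*, with means of 59.9 and 49.6 FPKM (log2 fold change 0.27, limma adjusted p = 0.434), and *Aff4*, the scaffold of the super elongation complex, which had the lowest p among the partners. It measured 26.63, 21.87 and 28.53 FPKM in *Med23*-deficient and 13.61, 15.96 and 17.47 FPKM in WT stage 3 libraries, without overlap (log2 fold change 0.68, limma adjusted p = 0.124), and 17.25, 19.07 and 23.58 FPKM in WT stage 2.

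Of the Mediator genes, chromosome 11 held 7 of them (*Med1*, *Med7*, *Med9*, *Med11*, *Med13*, *Med24* and *Med31*), where 7.52% of all genes of the table lie on that chromosome. These genes did not move as 1 group. In *Med23*-deficient cells, *Med7*, *Med9*, *Med11* and *Med13* had lower means than in WT stage 2. *Med1*, *Med24* and *Med31* had higher means. In the table, the spans of 19 of the 32 genes overlapped another gene, and for 9 of these the other gene had a mean of at least 1 FPKM. *Cdk8* and *Med6* each hold a processed pseudogene on their own strand, *Gm15739* and *Gm16570*, with means of 2.12 and 2.77 FPKM, and *Ccnc* shares 2541 bases with *Tstd3* on the opposite strand (6.41 FPKM), so that single values of these genes are less certain.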

How the data were processed

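Total RNA of sorted thymic iNKT cells was sequenced in 9 libraries. As the study's methods state, the authors made stranded libraries with a low-input total RNA kit, removed adapters with Trimmomatic 0.36, mapped reads to mm10 with HISAT2, kept those with at most 2 hits, and ran StringTie on GENCODE vM12. The deposited values are FPKM per gene and library, rounded to 2 decimals. Reads with more loci are lost, which bears on genes with pseudogene copies.

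limma 3.58.1 (R 4.3.3, mean-variance trend) was fitted to log2(FPKM + 1) of genes above 0 in at least 1 of the 6 libraries compared, and p was adjusted by Benjamini-Hochberg over all of them. An exact permutation test of 3 against 3 libraries cannot go below 0.1 and was not used. The fit was tested before use on data made with a log2 change of 2 in 200 genes. Of these, 85% passed the adjusted threshold, as did 7 unchanged genes. Smaller changes, such as those of the Mediator genes, were not simulated, so the test does not show how many would be found. Groups came from sample titles. Named genes are the 32 members, the iNKT markers, and from each other transcription list and comparison at most the 3 genes of lowest p among those at an unadjusted p of 0.05. *Med27* to *Med30* were counted in the tail, *Med19* in the middle. The members and lists were chosen with earlier results of these data known. The main fits did not pair libraries by replicate number. Correlations of deviations between libraries of the same number ran from 0.0043 to 0.27, all 9 positive. For replicates 1 and 2, pairs of the same number lay at 0.0043 to 0.085, and pairs of replicate 1 with replicate 2 at 0.0048 to 0.12. The replicate 3 libraries correlated at 0.14 to 0.27 with each other and at -0.17 to -0.038 with the replicate 1 and 2 libraries. What they share is not given in the sources used here. Figures were drawn with Python 3.11.15 and matplotlib 3.10.9. Promoter sequences are from RefSeq.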

Additional observations from a re-analysis of the deposited data

How the results depend on the processing

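Each comparison was refitted under 16 alternatives: pseudocounts of 0.1 and 0.01, a minimum mean of 1 FPKM, the TPM scale (equal sums of FPKM), a common upper quartile, quantile normalization, the Ballgown-style model, limma without a trend, all 9 libraries, the replicate number as a block, and each library left out. The count of Mediator genes at an adjusted p of 0.05 stayed at 0, apart from 1 (*Med10*) in *Med23*-deficient stage 2 against WT stage 3 with all 9 libraries in 1 fit.

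In WT stage 3 against WT stage 2, the 2 genes at an unadjusted p of 0.05 (6.25% of 32, against 13.2% of all genes) became 0 in the Ballgown-style model (11.3% of all genes), 4 without a trend (12.5%, against 14.5%), 1 with all 9 libraries (14.5%), 1 with the replicate block (13.2%) and 0 to 2 with a library left out (0 without WT stage 3 replicate 1, 13% of all genes). The count past fold 2 and p was 0 to 1 with a library left out (*Med1*). In *Med23*-deficient against WT stage 2, the 3 genes (9.38%, against 9.58%) became 1 in the Ballgown-style model (7.58% of all genes), 7 without a trend (21.9%, against 10.8%), 1 to 4 with a library left out (1, *Med10*, without *Med23*-deficient replicate 2, 8.67% of all genes) and 2 with the replicate block (9.38% of all genes), and the fold 2 count became 1 with a pseudocount of 0.01 (*Med7*) and 0 to 1 with a library left out (*Med29*). In *Med23*-deficient stage 2 against WT stage 3, the 3 genes (9.38%, against 10.2%) became 5 without a trend (15.6%, against 11.3%) and 1 to 6 with a library left out (1 without WT stage 3 replicate 3 or *Med23*-deficient replicate 2, 9.56% and 9.44% of all genes; 6 without *Med23*-deficient replicate 3, 18.8% against 10.9%). They were 3 under the replicate block (10.1% of all genes), which lost *Med22* and gained *Med19*. Under the block 0 Mediator genes passed the adjusted threshold in each comparison. Of all genes 19, 0 and 42 did, against 346, 44 and 278 in the main fits. The replicate numbers are shared labels and no known pairing, though the replicate 3 libraries deviated together. In an alternative chosen after seeing this, replicates 1 and 2 alone gave 0, 4 and 3 genes at an unadjusted p of 0.05 (10.2%, 8.45% and 9.91% of all genes), 0 Mediator genes at the adjusted threshold (0, 1 and 6 of all genes), and 2 past fold 2 (*Med7*, *Med29*) between the genotypes at stage 2, and the middle median was 0.13 between the WT stages and -0.24 between the genotypes.

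Module medians of the log2 fold change moved under some alternatives as follows. In the Ballgown-style model the WT comparison gave -0.41 for the head, 0.095 for the middle, -0.22 for *Med14* and 0.19 for the kinase genes, and *Med23*-deficient against WT stage 2 gave -0.22, 0.013 and 0.28 for head, middle and kinase. In the latter comparison the middle was -0.22 on the TPM scale, 0.0013 with a common upper quartile and -0.029 after quantile normalization, the kinase genes were at 0.021 on the TPM scale, and the head was -0.095 with *Med27* to *Med30* counted in it. For *Med23*-deficient stage 2 against WT stage 3 the middle was -0.25 with either smaller pseudocount. With a library left out, the WT comparison ran from -0.092 to 0.14 for the middle, -0.14 to 0.038 for the tail, -0.047 to 0.15 for the head and -0.035 to 0.080 for the kinase genes. *Med23*-deficient against WT stage 2 ran from -0.015 to 0.21 for the head, -0.25 to 0.030 for the middle and 0.016 to 0.22 for the kinase genes. *Med23*-deficient stage 2 against WT stage 3 ran from -0.14 to 0.21 for the head, -0.22 to -0.046 for the middle, -0.19 to 0.068 for the tail and 0.047 to 0.17 for the kinase genes. The causes were not tested. Summed FPKM of the 32 genes became 299.2 in WT stage 2 and 259 in *Med23*-deficient cells on the TPM scale, and 277 in the latter with a common upper quartile.

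The TPM scale, set mostly by *Gm23935*, moved the median of expressed genes between *Med23*-deficient and WT stage 2 cells from -0.050 to -0.16. *Med10* was then at -0.56 and *Med13l* at 0.29. The sign of the difference held under all 16 alternatives for 11, 17 and 16 of 32 genes in the 3 comparisons as ordered above. *Med10* and *Med13l* kept theirs in both comparisons with *Med23*-deficient cells. Depth is unknown, so what low counts limit cannot be stated.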
